A study of Homo sapiens with 8 samples.

Results

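The 10 genes described here belong to, or are read out by, the integrated stress response: ATF4, ATF5, DDIT3, PPP1R15A, PPP1R15B, ASNS, CHAC1, TRIB3, SESN2 and ATF3. They were taken by gene name as stress-response factors whose messages carry upstream reading frames, or as target genes of ATF4, by a rule that uses gene names alone. The names themselves were chosen with earlier results of these data known. All 10 were found among the 11244 genes of the deposited translation efficiency table and among the 60718 genes of the deposited count table. The question was whether this response differed between METTL5-KO and METTL5-WT cells in transcript level, in ribosome occupancy or in translation efficiency (TE).

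METTL5 is the enzyme that places N6-methyladenosine on 18S ribosomal RNA. The cells were labelled HepG2, an established human liver cancer line, with intact METTL5 (genotype WT) or with METTL5 disrupted by CRISPR-Cas9 (genotype KO), and every plate of either genotype received cycloheximide, which arrests ribosomes on the message. Each of the 4 groups, METTL5-WT input, METTL5-KO input, METTL5-WT ribosome-protected fragments (RPF) and METTL5-KO RPF, had 2 libraries. Input and RPF libraries with the same genotype and number were split from the same lysate. No stress inducer is named for any group, so the values describe cells in ordinary culture. Per the study, HepG2 cells of each genotype were expanded from isolated clones, and the clone behind each replicate is not given in the sources used here, so clone and genotype cannot be told apart and p-values measure the spread between these libraries only.

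In the integrated stress response, kinases that sense amino acid shortage, misfolded protein, heme shortage or double-stranded RNA phosphorylate eIF2, and bulk initiation slows. Messages such as ATF4, ATF5, DDIT3 and PPP1R15A carry short reading frames upstream of the coding sequence, which hold ribosomes back in unstressed cells and let more of them reach the coding start when eIF2 is phosphorylated. ATF4, a basic leucine zipper transcription factor, then raises transcription of genes for amino acid supply and of TRIB3, CHAC1, SESN2 and DDIT3, and PPP1R15A and PPP1R15B bring protein phosphatase 1 to eIF2 to reverse the mark.

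Input libraries held between 10710226 and 15307257 counts. The METTL5-WT RPF libraries held 3970779 and 4592443 recovered reads, against 8626705 and 9255921 for METTL5-KO, so low genes are least precise in the METTL5-WT RPF libraries. METTL5 itself was lower in every METTL5-KO library, with a log2 change of -1.86 ± 0.18 (SE) in input and -3.56 ± 0.30 (SE) in RPF. The METTL5-KO input libraries differed more from each other than the METTL5-WT input libraries did, with a chi-square per degree of freedom of 15.6 against 3.14. The cell line label was checked against 8 hepatocyte markers, and it went against the data: TTR, SERPINA1 and FGB had 0 counts in all 4 input libraries, ALB had at most 1, and the highest count of any of the 8 was 9, for AFP. Their summed level was 0.28 to 0.357 CPM in METTL5-WT against 0.473 to 0.784 in METTL5-KO. Of 10 markers of other cell types, the collagen gene COL1A1 had 429 to 937 input counts and the others had at most 6, CD3E, HBG1 and HBA1 being at 0. Their summed level was 38.9 to 45.3 CPM in METTL5-WT against 53.2 to 61.9 in METTL5-KO. The cells are therefore called only by the genotype of their label below, and the part these markers play in any result was not tested.

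The upstream reading frames of the messages come first, since they are the feature by which several of these genes were chosen. In the annotated canonical transcripts of GENCODE release 44 on GRCh38, 7 of the 10 genes had at least 1 ATG before the coding start, against 39.9% of 11224 genes of the TE table with such a transcript. ATF4, ATF5 and DDIT3 each had a frame that starts upstream and runs past the coding start, an arrangement present in 12.2% of those genes. ATF4 (ENSG00000128272, chr22:39519672-39522683, plus strand) had upstream frames of 1, 3 and 59 codons, the last of them overlapping. ATF5 (ENSG00000169136, chr19:49928702-49933935, plus strand) had a 3-codon frame followed by an overlapping frame of 59 codons. DDIT3 (ENSG00000175197, chr12:57516588-57521737, minus strand) had frames of 34 and 31 codons that share a stop, then an overlapping frame of 73 codons. PPP1R15A (ENSG00000087074, chr19:48872421-48876058, plus strand) had separate frames of 22 and 26 codons, and PPP1R15B (ENSG00000158615, chr1:204403381-204411817, minus strand) had separate frames of 8 and 51 codons. TRIB3 had 2 separate frames of 77 and 14 codons, SESN2 had 1 of 19 codons, and ASNS, CHAC1 and ATF3 had none in these transcripts. The start sites of the genes with an overlapping frame or with a fall in RPF are shown with 9 bases on each side, from the transcript sequence in the sense direction, and capitals mark the ATG.
ATF4 upstream start 1: cgcccacagATGtagttttct
ATF4 upstream start 2: acggccaccATGgcgtattag
ATF4 upstream start 3, overlapping: gcttaagccATGgcgcttctc
ATF4 coding start: caccgcaacATGaccgaaatg
ATF5 upstream start 1: gccccggccATGgctctgtag
ATF5 upstream start 2, overlapping: gctgcagccATGgagtcttcc
ATF5 coding start: gctacagccATGtcactcctg
DDIT3 upstream start 1: gagcgtatcATGttaaagatg
DDIT3 upstream start 2: atgttaaagATGagcgggtgg
DDIT3 upstream start 3, overlapping: tgaaagcagATGtgcttttcc
DDIT3 coding start: actgcagagATGgcagctgag
PPP1R15A upstream start 1: gttgatcttATGcaagacgct
PPP1R15A upstream start 2: gagggtgagATGaacgcgctg
PPP1R15A coding start: cccagacacATGgccccaggc
PPP1R15B upstream start 1: ctcctatccATGgtgttgaag
PPP1R15B upstream start 2: cccgccaggATGgaagtcgca
PPP1R15B coding start: aaaaaggagATGgagccgggg

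The first ATG of ATF4 is followed at once by a stop codon. The second ATG of DDIT3 lies inside the frame of the first. The overlapping frame starts 97 bases before the coding start in ATF4, 124 bases before it in ATF5 and 32 bases before it in DDIT3. The deposited tables give 1 value per gene, so ribosomes on an upstream frame and on the coding sequence were not measured apart.

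**Figure D1:**
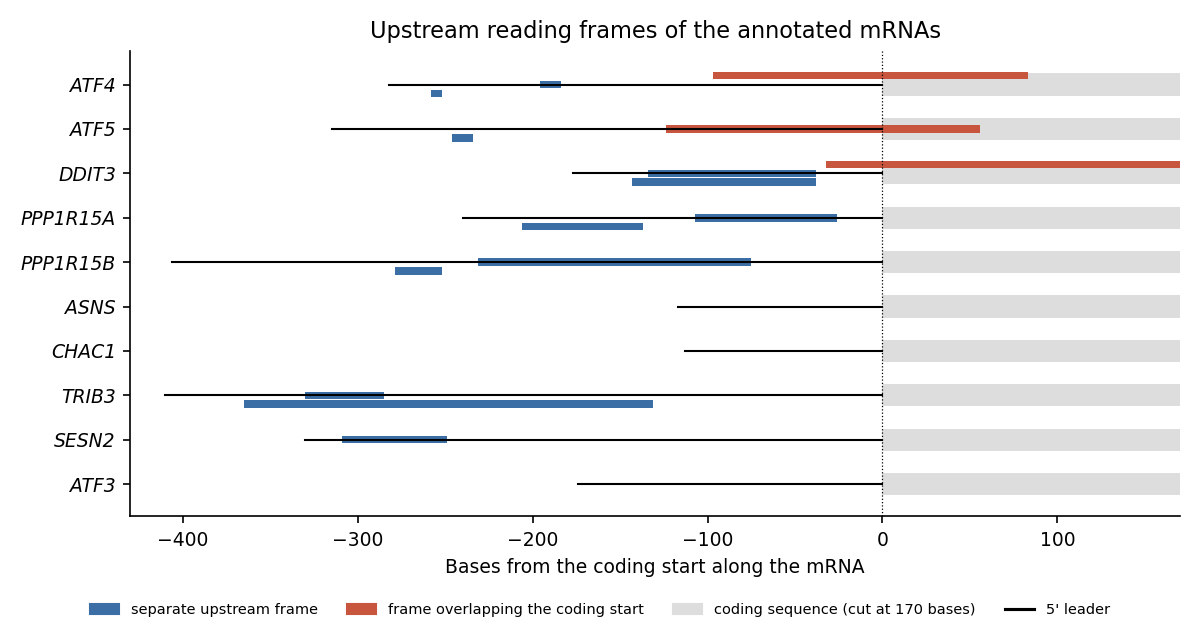
Upstream reading frames of the 10 genes on their canonical GENCODE 44 transcripts, with distance from the coding start in bases along the horizontal axis. Blue bars are frames that end before the coding start, red bars are frames that run past it, black lines are the 5' leaders and grey bars are the beginning of each coding sequence. ATF4, ATF5 and DDIT3 carry the 3 red bars, and ASNS, CHAC1 and ATF3 carry no bar.

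The promoters of the genes were searched for the composite element that C/EBP and ATF4 heterodimers bind, in the form TGATGNAA, on both strands of RefSeq promoters of GRCh38.p14 that span 250 bases before to 50 bases after each listed transcription start. A match was present in 4 of 18 promoters of the 10 genes, against 3.62% of 35116 promoters. Some of the genes were chosen as ATF4 targets, so a higher share is no separate result. Several promoters of the same gene also overlap. The matches are shown with 11 bases on each side, along the strand of the gene, and capitals mark the match.
PPP1R15B, match on the strand of the gene at position -227 from the start site, promoter chr1:204411768-204412067, minus strand: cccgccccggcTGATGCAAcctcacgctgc
ATF3, match on the strand of the gene at position -191, promoter chr1:212565157-212565456, plus strand: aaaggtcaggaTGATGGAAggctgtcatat
ASNS, match on the strand of the gene at position -68, promoter chr7:97872359-97872658, minus strand: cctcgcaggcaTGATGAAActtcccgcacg
CHAC1, match on the strand opposite to the gene at position -209, promoter chr15:40953221-40953520, plus strand: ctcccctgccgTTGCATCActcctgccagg

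ATF3, ASNS and CHAC1 are known ATF4 targets, and each of the 3 had RPF values in METTL5-KO above those in METTL5-WT, while PPP1R15B had RPF values below them, as described next. SESN2, a known target with no match in its promoter window, also had RPF values above, and TRIB3 and DDIT3, with no match either, did not. RPF values of the genotypes did not overlap for 61.4% of all genes tested. In the model of 8 libraries ATF3 and PPP1R15B were called in RPF, and ASNS, CHAC1 and SESN2 were not. A link between a match and a direction was not tested. A match here is a description of these letters in these windows only.

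ATF4 had fewer ribosome-protected fragments in METTL5-KO, with no input change of a constant direction across libraries. Its input values, in reads scaled by the library's size factor, were 1569 and 1825 in METTL5-WT against 1443 and 1959 in METTL5-KO. The METTL5-KO input libraries lay on either side of the METTL5-WT libraries. The RPF values were 285 and 331 in METTL5-WT against 170 and 185 in METTL5-KO, from 120, 165, 141 and 166 reads. Both METTL5-KO RPF libraries were below both METTL5-WT libraries, with 308 ± 32.4 (SD, n = 2) against 178 ± 10.6 (SD, n = 2). The input log2 change was -0.01 ± 0.13 (SE, edgeR adjusted p = 0.977). This value was set by the METTL5-KO input libraries one at a time: it was -0.25 without METTL5-KO replicate 2 (adjusted p = 0.0465) and 0.21 without METTL5-KO replicate 1 (adjusted p = 0.0403). The RPF log2 change was -0.79 ± 0.15 (SE, limma adjusted p = 0.000762), and edgeR on the recovered reads gave -0.82 ± 0.18 (SE, adjusted p = 0.000693). ATF4 passed the threshold in RPF under all 18 alternatives run, with adjusted p-values from 0.000157 to 0.0295. TE, the RPF change beyond the input change, fell by 0.78 on the log2 scale, with an SE of 0.21 (limma adjusted p = 0.0418, edgeR adjusted p = 0.0184). Limma without a variance trend no longer called it (adjusted p = 0.202), nor did limma with any 1 lysate left out (adjusted p from 0.0603 to 0.255), while the change stayed between -0.94 and -0.62. An exact permutation test of 2 against 2 values can give no two-sided p below 0.333, so single values were not tested on their own. In bulk lysates, a change in some of the cells and a smaller change in all of them cannot be told apart.

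PPP1R15A, also named GADD34, is the stress-induced subunit that directs protein phosphatase 1 to eIF2. Its input values were 114 and 142 in METTL5-WT against 130 and 121 in METTL5-KO, so that the METTL5-KO libraries lay between the METTL5-WT libraries. The RPF values were 173 and 237 in METTL5-WT against 133 and 94.8 in METTL5-KO, and the genotypes did not overlap. The RPF log2 change was -0.85 ± 0.24 (SE, limma adjusted p = 0.0126, edgeR adjusted p = 0.00587), against an input change of -0.05 ± 0.18 (SE, edgeR adjusted p = 0.89). Without METTL5-WT replicate 2 it became -0.62 in RPF (limma adjusted p = 0.0996) and without METTL5-KO replicate 2 it was -0.61 (adjusted p = 0.177), so the call rests on those libraries. The TE change of -0.82 ± 0.34 (SE) was close in size to that of ATF4 and did not pass the test (limma adjusted p = 0.157, edgeR adjusted p = 0.0955).

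PPP1R15B, also named CReP, is the constitutive partner of PPP1R15A in the same task. It fell in both readouts. The input values were 3355 and 3524 in METTL5-WT against 2506 and 2430 in METTL5-KO. The RPF values were 1606 and 1815 in METTL5-WT against 1068 and 986 in METTL5-KO. In each library type both METTL5-KO values lay below both METTL5-WT values, and the gap was wider than the spread within either genotype. The log2 change was -0.49 ± 0.11 (SE, edgeR adjusted p = 0.00245) in input and -0.73 ± 0.10 (SE, limma adjusted p = 4.95e-05) in RPF. The RPF call was kept under all 18 alternatives (adjusted p at most 0.0104), and the input call was lost without METTL5-WT replicate 1 (adjusted p = 0.129) or METTL5-WT replicate 2 (adjusted p = 0.203). TE changed by -0.26 ± 0.14 (SE, limma adjusted p = 0.303), with a 95% interval from -0.56 to 0.05.

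ATF5 and DDIT3 carry overlapping upstream frames as ATF4 does. ATF5 is a transcription factor of mitochondrial and proteotoxic stress, and its input values were 175 and 129 in METTL5-WT against 119 and 93.4 in METTL5-KO. Its RPF values were 207 and 182 in METTL5-WT against 141 and 156 in METTL5-KO. The METTL5-KO libraries were the lower ones in both readouts. The input log2 change of -0.54 ± 0.19 (SE) passed the test by a narrow margin (edgeR adjusted p = 0.0471) and did not pass it in DESeq2 (adjusted p = 0.13), without METTL5-WT replicate 1 (adjusted p = 0.596) or without METTL5-KO replicate 2 (adjusted p = 0.174). The RPF change of -0.39 ± 0.22 (SE, limma adjusted p = 0.209) was not called, and TE changed by 0.12 ± 0.31 (SE, limma adjusted p = 0.855), with a 95% interval from -0.54 to 0.79. The 40 tested genes nearest to ATF5 on chromosome 19 had a median input change of 0.34, whose part in the values of ATF5 was not tested.

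DDIT3 encodes CHOP, a factor linked to death of cells under lasting stress. The input values were 53.1 and 48.3 in METTL5-WT against 62.1 and 50.7 in METTL5-KO, and the RPF values were 85.5 and 72.2 in METTL5-WT against 36.2 and 71.4 in METTL5-KO. These rest on 68 to 103 input reads and 30 to 64 RPF reads per library. METTL5-KO replicate 1 was the low RPF library, and METTL5-KO replicate 2 lay just below METTL5-WT replicate 2. The RPF log2 change was -0.62 ± 0.34 (SE, limma adjusted p = 0.182). TE moved by -0.76 ± 0.48 (SE, limma adjusted p = 0.358). Single libraries set both values: without METTL5-KO replicate 1 the change was -0.14 in RPF and -0.14 in TE, and without METTL5-KO replicate 2 it was -1.10 in RPF and -1.39 in TE. The 95% interval of the TE change ran from -1.77 to 0.24, so a fall of the size seen in ATF4 could be neither detected nor set aside at this depth. Exons of MARS on the opposite strand cover 27.2% of the exon bases of DDIT3, and exons of NUP62 cover 19.5% of those of ATF5 in the same way. On the same strand, ENSG00000285133 shares 8.03% of the exon bases of DDIT3 and MIR4751 shares 2.56% of those of ATF5. Each had 0 counts in every input library, and whether reads in both genes were left out was not tested. The input counting used strand, and for RPF it is not given in the sources used here.

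The other 5 genes are targets through which ATF4 activity is commonly read. CHAC1, an enzyme that degrades glutathione and one of the most ATF4-responsive genes, was higher in METTL5-KO. Its input values were 34 and 35.5 in METTL5-WT against 54.9 and 69.3 in METTL5-KO, and its RPF values were 61.8 and 48.1 in METTL5-WT against 72.4 and 103.7 in METTL5-KO. The genotypes overlapped in neither readout. The input log2 change was 0.83 ± 0.27 (SE, edgeR adjusted p = 0.0295), from 50 to 138 counts per library. That call was lost in DESeq2 (adjusted p = 0.0909), in limma (adjusted p = 0.0886, and 0.166 when the GC trend was also removed), without either METTL5-WT library (adjusted p = 0.161 and 0.114) and without METTL5-KO replicate 2 (adjusted p = 0.143). The RPF change of 0.66 ± 0.31 (SE, limma adjusted p = 0.126) was not called, and the TE change was -0.15 ± 0.44 (SE, limma adjusted p = 0.877).

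ATF3, a repressor and activator of the same zipper family that ATF4 induces, was higher in RPF. The RPF values were 297 and 275 in METTL5-WT against 399 and 396 in METTL5-KO. The METTL5-KO libraries were close to each other and above both METTL5-WT libraries, with 286 ± 15.7 (SD, n = 2) against 398 ± 2.35 (SD, n = 2). The RPF log2 change was 0.48 ± 0.15 (SE, limma adjusted p = 0.0264, edgeR adjusted p = 0.0394). It was not called in limma with any 1 lysate left out (adjusted p from 0.0526 to 0.135) or with the trend on coding length removed, which gave 0.32 (adjusted p = 0.13). Input values of 209 and 230 in METTL5-WT against 284 and 261 in METTL5-KO gave a change of 0.30 ± 0.14 (SE, edgeR adjusted p = 0.149). TE changed by 0.17 ± 0.22 (SE, limma adjusted p = 0.694).

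TRIB3 and SESN2 overlapped between genotypes in input. TRIB3, a pseudokinase that restrains ATF4 and AKT signalling, had input values of 383 and 409 in METTL5-WT against 389 and 503 in METTL5-KO. Its RPF values of 615 and 562 in METTL5-WT against 468 and 562 in METTL5-KO also overlapped. The log2 changes were 0.16 ± 0.14 (SE, edgeR adjusted p = 0.445) in input, -0.20 ± 0.15 (SE, limma adjusted p = 0.341) in RPF and -0.36 ± 0.21 (SE, limma adjusted p = 0.324) in TE. Without METTL5-KO replicate 1 its input change was 0.34 (edgeR adjusted p = 0.00762). The 23 tested genes nearest to TRIB3 on chromosome 20 had median changes of -0.24 in input and -0.41 in RPF, whose part in the values of TRIB3 was not tested.

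SESN2, which signals leucine shortage to mTORC1, had input values of 100.1 and 85.3 in METTL5-WT against 83.2 and 125 in METTL5-KO. Its RPF values were 87.9 and 100.3 in METTL5-WT against 108.5 and 113 in METTL5-KO, slightly higher in METTL5-KO. The RPF change of 0.23 ± 0.26 (SE, limma adjusted p = 0.533) was within its error. METTL5-KO replicate 2 was the higher METTL5-KO input library for ATF4, CHAC1, TRIB3 and SESN2, and METTL5-KO replicate 1 was the higher one for ATF5, DDIT3, PPP1R15A, PPP1R15B and ATF3.

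ASNS, asparagine synthetase, is a classical ATF4 target, and its input values are uncertain. It had 5, 6, 7 and 14 input counts beside 400, 457, 978 and 1078 RPF reads, in the order METTL5-WT 1 and 2, then METTL5-KO 1 and 2. An overlapping gene on the same strand, ENSG00000284707, shares 2415 of the 4896 exon bases of ASNS (49.3%), and it had 2, 16, 16 and 21 input counts of its own. Whether reads that fall in both genes were left out of the counts was not tested. Input and TE of ASNS are therefore given with this doubt, and counts and medians that include its TE are also given without it. Without the filter on low counts its input estimate was 0.58 ± 0.77 (SE, edgeR adjusted p = 0.769). In RPF, the values were 950 and 917 in METTL5-WT against 1179 and 1202 in METTL5-KO. Both METTL5-KO libraries were higher by more than the spread within either genotype. The RPF change was 0.35 ± 0.28 (SE, limma adjusted p = 0.377) in the model of 8 libraries, whose spread for this gene includes the sparse input, and 0.33 ± 0.13 (SE, adjusted p = 0.055) in edgeR. In a limma model of the 4 RPF libraries alone the change was 0.35 ± 0.11 (SE, adjusted p = 0.0259).

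**Figure D2:**
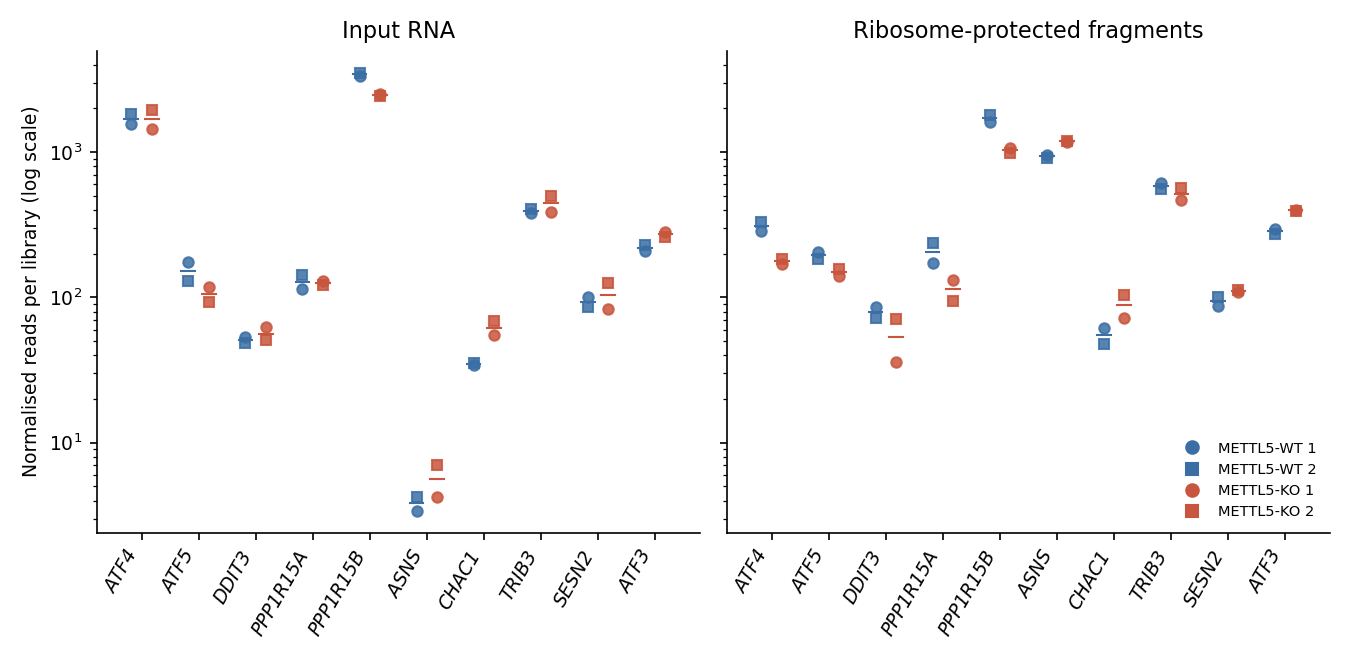
Values of the 10 genes in each library, in normalised reads on a log axis, for input RNA on the left and ribosome-protected fragments on the right. Blue marks are METTL5-WT, red marks are METTL5-KO, circles and squares are replicates 1 and 2, and short lines are group means. In RPF both red marks of ATF4, PPP1R15A and PPP1R15B lie below both blue marks, those of ATF3, ASNS and CHAC1 lie above, and in input ATF4 and PPP1R15A overlap.

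Counted together, the genes did not move in a single direction. In input, 3 of the 9 genes tested were called, CHAC1 higher and ATF5 and PPP1R15B lower, where 22.4% of 14054 genes were called, 11.8% higher and 10.6% lower. In RPF, 4 of 10 were called, ATF3 higher and ATF4, PPP1R15A and PPP1R15B lower, where limma called 29.3% of 11240 genes, 16.2% higher and 13.1% lower. The edgeR test on recovered reads called the same 4 genes, where it called 27.8% of 11244 genes. In TE, ATF4 alone was called, lower in METTL5-KO, where limma called 4.79% of genes, 2.7% higher and 2.08% lower. With edgeR, ATF4 was again the sole TE call among the 10, beside 6.76% of all genes. With so few genes, the counts are read as near these backgrounds. RPF values of the genotypes did not overlap for 9 of the 10 genes, 4 higher and 5 lower, where this held for 61.4% of all genes tested, both directions together. TE values did not overlap for 5 of the 10, where this held for 53.1% of all genes, both directions together. The 5 (ATF4, DDIT3, PPP1R15A, PPP1R15B and TRIB3) were lower in METTL5-KO. The share of all genes that were lower in this way was not counted, so their common direction has no background here. With the GC trend removed, the TE change of TRIB3 went from -0.36 to -0.01. Without ASNS the TE values did not overlap for 5 of 9. The median change over the genes tested was 0.14 in input, -0.29 in RPF and -0.20 in TE, beside medians of -0.00, 0.02 and 0.02 over all genes. The TE median without ASNS was -0.26.

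**Figure D3:**
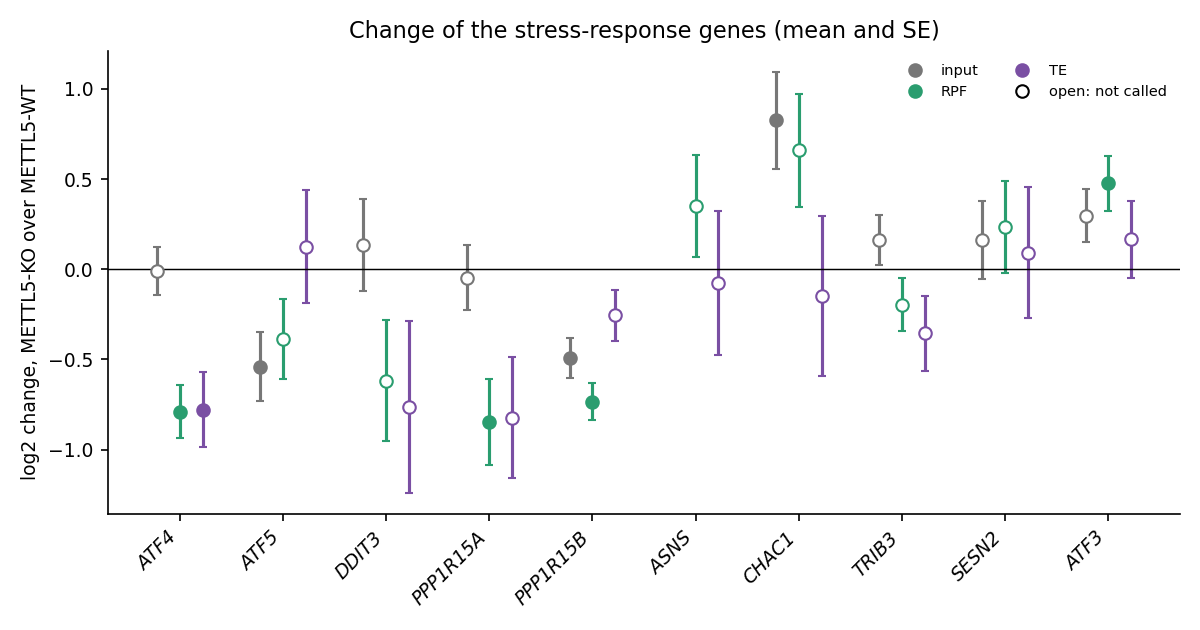
Log2 change of each gene in METTL5-KO over METTL5-WT for input (grey), RPF (green) and TE (purple), with bars of 1 SE. Filled marks passed an adjusted p-value of 0.05 and open marks did not, and ASNS has no input mark since it was under the filter on low counts. TE of ATF4 at -0.78 is the single filled purple mark.

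The fall of ATF4 was also set against genes of like base composition, since TE changes followed GC content in these libraries. Its coding sequence is 52.6% GC, and the 729 genes within 1 percentage point of it had a median TE change of 0.06. The TE change of ATF4 lay at percentile 6.8 of all genes with a coding annotation and at percentile 5.49 of those 729 genes. With the GC trend removed from each library, ATF4 was still called (limma adjusted p = 0.0472). TRIB3 is 64.8% GC, and its TE change of -0.36 lay at percentile 47.6 of the 563 genes of like GC, whose median was -0.33. SESN2 and ATF5, with TE changes of 0.09 and 0.12, lay at percentiles 84.1 and 84.9 of genes of like GC. The genes thus differed in how far their TE change stood from genes of like composition.

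RPF levels of the 10 genes were compared with each other only per length, as RPKM over coding sequence, from the recovered reads and each library's total. In METTL5-WT the order started with PPP1R15B at 79.5 and 92. ASNS, TRIB3 and ATF3 followed between 54.6 and 60.6 and were not apart beyond their spread. ATF4 was at 28.6 and 34, ATF5 at 25.8 and 23.3 and DDIT3 at 17.8 and 15.4. PPP1R15A (9.08 and 12.7), CHAC1 (9.79 and 7.81) and SESN2 (6.46 and 7.55) were lowest, and PPP1R15A and CHAC1 overlapped. In METTL5-KO the order started with ATF3 at 70.3 in each library and ASNS at 67.2 and 69.1. PPP1R15B, at 48 and 44.6, now overlapped TRIB3, at 41.8 and 50.6. ATF4, at 15.5 and 17, overlapped ATF5, at 16 and 17.8. PPP1R15A was the lowest of the 10 in METTL5-KO, at 6.3 and 4.53.

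The TE level itself, as opposed to its change, was lowest in ATF4 among the 10 genes. It was taken as the log2 ratio of RPF value per kilobase of coding sequence to input value per kilobase of exon, which assumes that RPF were counted over coding sequence. Among the 10615 genes whose mean reached 10 in both library types, the median was 1.77 in METTL5-WT. ATF4 was at -0.997 and -1.001 in the METTL5-WT lysates, at percentile 1.31 of those genes, and at -1.62 and -1.94 in the METTL5-KO lysates, at percentile 0.273. PPP1R15B was at 0.23 and 0.34 in METTL5-WT, at percentile 10.5. PPP1R15A was at 1.20 and 1.33 in METTL5-WT, at percentile 33.3, and at 0.63 and 0.25 in METTL5-KO, at percentile 13. ATF5 and DDIT3, which have overlapping upstream frames like ATF4, were at percentiles 62.2 and 57.3 in METTL5-WT. ATF3 was at 3.39 and 3.14, at percentile 88.6. The values of ASNS lie far to the right of all of these and carry the doubt on its input counts. The ranks depend on the lengths used, since exon length covers all counted exons of a gene and coding length is from 1 transcript. Without scaling by length, METTL5-WT percentiles were 3.17 for ATF4, 20.4 for PPP1R15B and 73.2 for PPP1R15A. They were 63.4 for ATF5, 72.1 for DDIT3 and 63.8 for ATF3.

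**Figure D4:**
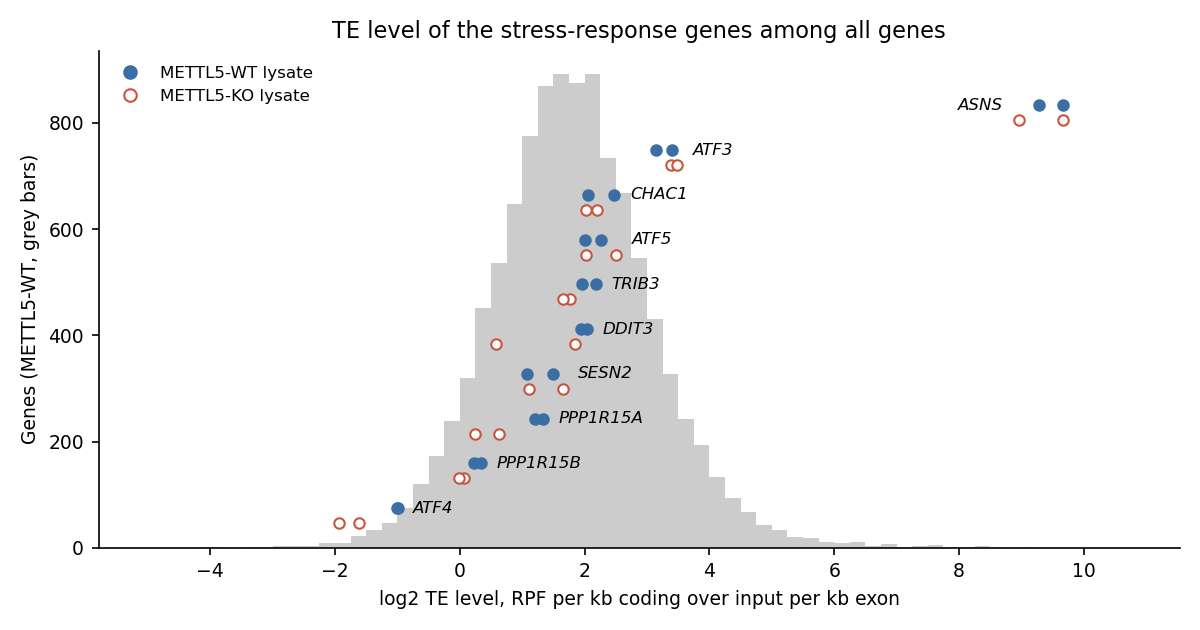
TE level of the 10 genes, as the log2 ratio of RPF per kilobase of coding sequence to input per kilobase of exon, over a histogram of all ranked genes in METTL5-WT (grey bars, number of genes on the vertical axis). Blue points are METTL5-WT lysates, open red points just under them are METTL5-KO lysates, and the height of a point only separates the genes. ATF4 sits in the left tail, at -0.997 and -1.001 in METTL5-WT, and further left in METTL5-KO, and ASNS sits at the far right.

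Upstream starts were then related to TE over all genes of the table. The median log2 TE level in METTL5-WT, not scaled by length, was 0.25 in the 6738 genes with no upstream ATG, -0.16 in the 2167 genes with 1, -0.41 in the 1018 genes with 2 and -0.69 in the 1297 genes with 3 or more. Without that scaling the level may also vary with the share of a message that is coding. The part of length in this order was not tested. The median TE change in METTL5-KO was 0.07, -0.05, -0.07 and -0.09 in the same order. TE calls in either direction made up 4.9%, 4.48%, 5.11% and 4.32% of the classes. Lower TE calls made up 1.34% of genes with no upstream ATG and 2.91%, 3.83% and 3.01% of the other classes. Of the 1372 genes with an overlapping frame, 2.99% were called lower and the median TE change was -0.07. ATF4 was thus among the 2.99% of this class called lower, beside 2.08% of all genes tested. The TE changes of ATF5 (0.12) and DDIT3 (-0.76, not called) differed in sign within the class. These medians describe 1 comparison of 2 against 2 lysates, and genes are not replicates.

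The lists of other stress-response genes were read in the same fits. Over the 132 tested genes of 8 lists, 31 were called in input (23.5%), 38 in RPF (28.8%) and 7 in TE (5.3%), which is near the shares for all genes. With the lysate as a replicate block, 11 were called in TE. Of 18 tested genes of amino acid synthesis and transport that ATF4 is known to drive, 2 were higher and 5 lower in input, and 3 were higher and 5 lower in RPF, beside 11.8% and 10.6% of all genes in input and 16.2% and 13.1% in RPF. The 7 input calls became 2 without either METTL5-WT library and 12 without METTL5-KO replicate 1. SLC7A11, the cystine transporter, rose most, with a log2 change of 1.49 ± 0.12 (SE, edgeR adjusted p = 1.81e-09) in input and 1.76 ± 0.12 (SE, limma adjusted p = 1.01e-08) in RPF. PSAT1, of serine synthesis, rose in RPF by 0.65 ± 0.10 (SE, limma adjusted p = 0.000119) and in TE by 0.72 ± 0.14 (SE, limma adjusted p = 0.00956). GPT2, an alanine aminotransferase, fell in input (-0.87 ± 0.16, SE, edgeR adjusted p = 0.000377), as did ALDH18A1, of proline synthesis (-0.52 ± 0.13, SE, adjusted p = 0.00406). The glycine transporter SLC6A9 fell in RPF by 0.64, with an SE of 0.15 (limma adjusted p = 0.00476). The median RPF change of the list was -0.16.

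Of 16 tested target genes for regulators or secreted factors, 2 were higher and 2 lower in input, beside 11.8% and 10.6% of all genes. In RPF 3 were higher and 1 lower, beside 16.2% and 13.1% of all genes. In TE 0 were called by limma or edgeR, with 2 at an unadjusted limma p under 0.05. SQSTM1, the autophagy receptor p62, rose by 1.35 ± 0.12 (SE, edgeR adjusted p = 6.54e-09) in input and 1.09 ± 0.11 (SE, limma adjusted p = 1.77e-06) in RPF. The 4 input calls became 7 without METTL5-KO replicate 1. STC2, a secreted stanniocalcin, rose in RPF by 1.13 ± 0.21 (SE, limma adjusted p = 0.000786). VLDLR, a lipoprotein receptor, fell in both, with log2 changes of -1.18 in input (edgeR adjusted p = 1.93e-06) and -1.28 in RPF (limma adjusted p = 9.27e-05), and MAP1LC3B, an autophagosome protein, fell by 1.02 in input (edgeR adjusted p = 2.9e-05). Known targets of ATF4 thus went in both directions, as the 10 genes themselves and all genes tested did.

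The machinery upstream of ATF4 was called mostly in RPF. Of 24 genes for eIF2 kinases, phosphatase catalytic subunits and eIF2 factors, 9 were higher and 0 lower in RPF (11 and 0 at an unadjusted limma p under 0.05), beside 16.2% and 13.1% of all genes, and edgeR also called 9. EIF2AK2, the kinase PKR that responds to double-stranded RNA, rose by 0.74 ± 0.12 (SE, edgeR adjusted p = 9.04e-05) in input and 1.04 ± 0.11 (SE, limma adjusted p = 4.73e-06) in RPF. The other eIF2 kinases, EIF2AK1, EIF2AK3 and EIF2AK4, were not called in input, RPF or TE. Their RPF changes were 0.14, -0.18 and 0.16 (limma adjusted p = 0.299, 0.508 and 0.332). EIF2B1, of the exchange factor that recharges eIF2, rose in RPF by 0.70 ± 0.10 (SE, limma adjusted p = 9.06e-05), and DNAJC3, an inhibitor of eIF2 kinases, rose by 0.67 ± 0.15 (SE, adjusted p = 0.00266). EIF2S1, the eIF2 subunit that is phosphorylated, rose in TE by 0.68 ± 0.15 (SE, limma adjusted p = 0.0165). In TE 4 of the 24 were higher, beside 2.7% of all genes. With the GC trend removed limma called 0 of the 24, with 7 at an unadjusted p under 0.05, while edgeR without that correction called 4. The 4 limma calls in TE became 2 without METTL5-WT replicate 1 or METTL5-KO replicate 1, and 0 without METTL5-WT replicate 2 or METTL5-KO replicate 2. IMPACT, an inhibitor of the kinase GCN2, fell in input by 0.37 on the log2 scale (edgeR adjusted p = 0.0472, DESeq2 adjusted p = 0.102), and had changes of 0.60 ± 0.26 (SE, limma adjusted p = 0.0927) in RPF and 0.95 ± 0.36 (SE, limma adjusted p = 0.131) in TE. Phosphorylation of eIF2 is not measured by these libraries.

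Other branches of stress signalling were read beside these. Of 20 targets of the ATF6 and IRE1 branches, 8 were lower and 0 higher in input by edgeR (12 and 1 at an unadjusted p under 0.05), beside 10.6% and 11.8% of all genes, among them the chaperones HSPA5 (-0.66 ± 0.12, SE, edgeR adjusted p = 0.00019) and PDIA4 (-0.70 ± 0.12, SE, adjusted p = 0.000184) and the secreted factor MANF (-0.74 ± 0.12, SE, adjusted p = 6.19e-05). The median input change of that list was -0.28. Its 8 input calls became 2 without METTL5-WT replicate 1, 4 without METTL5-WT replicate 2 and 15 without METTL5-KO replicate 1, and its 7 RPF calls became 4 without either METTL5-WT lysate or METTL5-KO replicate 2. In RPF 5 were lower and 2 higher, beside 13.1% and 16.2% of all genes. CRELD2 was among the lower ones (-0.48 ± 0.12, SE, limma adjusted p = 0.00736), and the higher ones were DNAJB9 (0.76 ± 0.24, SE, adjusted p = 0.0219) and DNAJC3. MANF rose in TE by 1.01 ± 0.16 (SE, limma adjusted p = 0.00409). Of 15 other genes with upstream frames, 2 were higher and 3 lower in RPF, a total of 5 that became 1 without METTL5-KO replicate 1 and 2 when any 1 of the other lysates was left out, and 0 were called in TE by limma, with 4 at an unadjusted p under 0.05, where edgeR called 2. The RPF shares of all genes beside these 15 are again 16.2% higher and 13.1% lower. CEBPA, which has a regulatory upstream frame, fell in input (-1.40 ± 0.21, SE, edgeR adjusted p = 4e-05) and in RPF (-1.13 ± 0.32, SE, limma adjusted p = 0.0133). SLC7A1 (-0.61 ± 0.11, SE, limma adjusted p = 0.000695) and SLC35A4 (-0.46 ± 0.16, SE, adjusted p = 0.0374) fell in RPF.

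In RPF limma called 16.2% of all genes higher and 13.1% lower, and the counts of this paragraph stand beside these shares. Of 19 tested p53 targets, ZMAT3 fell in RPF (-1.32 ± 0.12, SE, limma adjusted p = 3.41e-07), CDKN1A rose (0.39 ± 0.11, SE, adjusted p = 0.0129), and 0 were called in TE by limma or edgeR, with 0 at an unadjusted limma p under 0.05. Of 18 tested immediate early genes, 3 were higher in RPF, including KLF6 (0.88 ± 0.12, SE, limma adjusted p = 6.26e-05) and JUNB (0.59 ± 0.16, SE, adjusted p = 0.00903), and FOS was lower (-1.06 ± 0.29, SE, adjusted p = 0.0103). JUN rose in input by 0.97 ± 0.19 (SE, edgeR adjusted p = 0.000688), and CCN2 fell in input by 0.87 on the log2 scale (adjusted p = 0.000688). CCN1 rose in TE by 0.67 ± 0.18 (SE, limma adjusted p = 0.0402). Of 15 tested C/EBP and CREB/ATF zipper partners, CREM rose (0.87 ± 0.20, SE, limma adjusted p = 0.00338) and CEBPA fell in RPF. Without METTL5-KO replicate 1 the RPF calls went from 2 to 1 among the p53 targets and from 2 to 0 among the zipper partners. Without METTL5-KO replicate 2 they went from 4 to 2 among the immediate early genes and from 2 to 1 among the zipper partners. The single TE call among the immediate early genes was lost when any 1 lysate was left out.

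**Figure D5:**
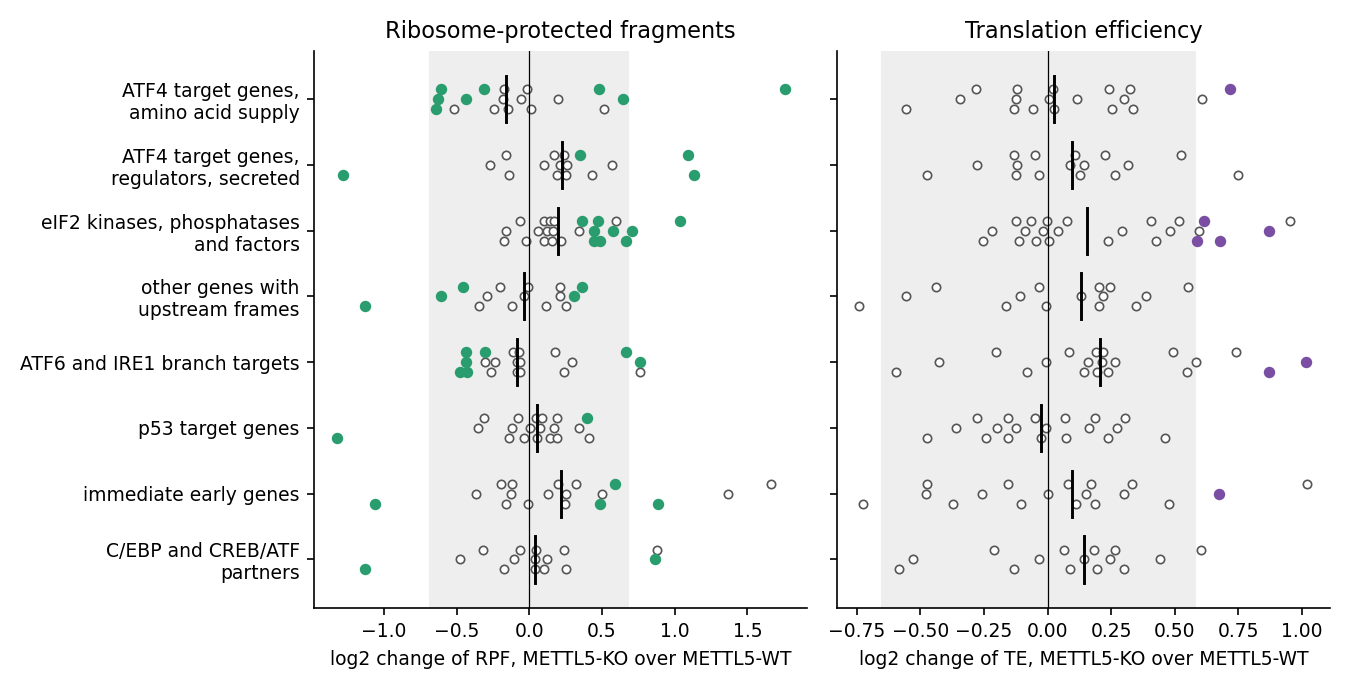
Log2 change of each gene of 8 lists in METTL5-KO over METTL5-WT, for RPF on the left and TE on the right. Filled points passed an adjusted p-value of 0.05, open points did not, black lines are list medians, and the grey band holds the middle 80% of all genes. The eIF2 list has 9 filled points in RPF, all to the right of 0, and the lists of ATF4 targets have filled points on both sides.

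The pattern of ATF4 over the 8 libraries was compared with that of other genes after the mean of each library type was taken off. Of 8979 genes whose mean reached 50 in each type, the nearest were STK16 (Pearson r = 0.991), LY6K (0.988), AGAP3 (0.985), TXNDC11 (0.984) and WDR34 (0.983). Each had an input change near 0 and a lower RPF value in METTL5-KO, between -0.73 and -0.47 on the log2 scale. The genes were picked by likeness to ATF4 over these same values, so this pattern is set by the choice and is no separate result. AGAP3 and WDR34 were called lower in TE (limma adjusted p = 0.0482 and 0.0462), and the other 3 were not. The same limit applies to these TE values. Within the 8 of the 10 genes that met the same minimum, the correlation with ATF4 was 0.80 for PPP1R15A, 0.76 for PPP1R15B, 0.66 for TRIB3, 0.52 for DDIT3, 0.26 for ATF5, -0.12 for SESN2 and -0.78 for ATF3. The 8 points share 4 lysates and 2 genotypes, and these coefficients are descriptions.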

How the data were processed

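The members of the gene set and all other gene lists were chosen with earlier results of these data known. Input reads were trimmed with BBDuk and mapped to hg38 with STAR 2.7.3a by the authors, who deposited whole-number counts per gene made by featureCounts over exons and by strand. The submitters' notes name featureCounts 1.6.0, and the file header names another release. RPF were restricted by the authors to footprint-sized fragments, cleared of ribosomal RNA reads and passed to RiboToolkit. Whether RPF were counted over coding sequence only is not given in the sources used here. The TE table's deposited signal values carry the name RPKM, but they were whole reads divided by a size factor per library: 100% of values came out whole within 0.01 of a read, and 100% of input values matched the count table. Columns of TE fold change, p-value and adjusted p-value that the authors deposited were not used.

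Tests on input used edgeR 4.0.16 (quasi-likelihood, TMM, filterByExpr). Tests on RPF and TE used limma 3.58.1 (trended eBayes) on log2(value + 1) in 1 model of 8 libraries, for genes whose mean reached 1 in both library types. The plan had assumed normalized values, so edgeR on the recovered reads is given beside limma. Fold changes on that scale understate changes of low genes. Adjusted p-values are Benjamini-Hochberg over all genes tested, two-sided, and a gene was called under 0.05. The SE of an edgeR change is its size divided by the root of F. TE is the interaction of genotype and library type. The models were tested on simulated data. DESeq2 1.42.0, R 4.3.3 and Python 3.11.15 were also used. GC and length trends were taken out by local regression with a span of 0.3.

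Named genes were the 10 members, METTL5, up to 3 called genes per list and readout with the largest change, a mean of at least 10 and genotypes that do not overlap, and the 5 genes most like ATF4. Promoter sequences are from RefSeq, and transcript sequences, GC content and lengths from GENCODE 44, in which 99.8% of TE table genes had a coding transcript. Gene positions matched for 99.9% of shared genes, so the files and the annotation were read as 1 build. Replicate numbers were checked for pairing. The correlation of deviations between same-numbered libraries was 0.04 in input and -0.00 in RPF. Input and RPF of the same lysate correlated at -0.02 in METTL5-WT and 0.05 in METTL5-KO. The protocol pairs input and RPF of the same lysate, and these correlations showed pairing neither by number nor by lysate. Alternatives were DESeq2, other size factors, filters, pseudocounts, scalings, GC and length corrections, blocks, and each library or lysate left out.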

Additional observations from a re-analysis of the deposited data

How the results depend on the processing

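Among the 10 genes, the RPF calls of ATF4 and PPP1R15B held in all 18 alternatives run, and the TE call of ATF4 held in 13 of 18. The count of genes called in input fell from 3 to 1 in DESeq2, in limma on log2(value + 1), in limma with libraries centred on their median and in limma with quantile normalization. A call rule of 2-fold or more at an unadjusted p-value under 0.05 gave 0 in input, 0 in RPF and 0 in TE, and limma without the variance trend called 0 in TE. With 1 library or lysate left out, which assumes that the lone sample varies like the others, the counts ranged from 0 to 5 in input, from 2 to 3 in RPF and were 0 throughout in TE, with 1 or 2 at an unadjusted p under 0.05. Over the 8 other lists, the input count of 31 ranged from 13 to 69, the RPF count of 38 from 26 to 32 and the TE count of 7 from 0 to 4 when 1 was left out. Without the variance trend the lists gave 24 in RPF and 0 in TE, and they gave 11 in TE in DESeq2 and 4 with quantile normalization. The median log2 TE level of the 10 genes in METTL5-WT, not scaled by length, was 0.48. It was 0.45 or 0.55 from a single lysate, and it was 0.38 without ASNS. The cause of these differences was not tested. Fits that leave 1 out also have fewer samples.

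Changes that turned sign were all small in the fits as reported. With 1 left out, the input change ranged from -0.25 to 0.21 for ATF4, from -0.00018 to 0.28 for DDIT3, from -0.19 to 0.12 for PPP1R15A, from -0.039 to 0.34 for TRIB3 and from -0.17 to 0.43 for SESN2. The TE change ranged from -0.12 to 0.37 for ATF5, from -0.37 to 0.22 for ASNS, from -0.36 to 0.056 for CHAC1 and from -0.17 to 0.36 for SESN2. The input change of ATF4 was 0.021 without the filter on low counts and 0.0022 with quantile normalization. With the GC trend removed, the input change was -0.034 for TRIB3 and -0.016 for SESN2, and the TE change of CHAC1 was 0.16, also with a replicate block on the lysate. The TE change of ASNS was 0.095 with a pseudocount of 5 and 0.042 with quantile normalization.

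A replicate block on the number gave 3 calls in input, 4 in RPF and 1 in TE among the 10 genes, as without it. With the lysate as the replicate block, the pairing that the protocol gives, TE calls were 1 among the 10 genes (ATF4, adjusted p = 0.01) and 11 over the other lists, and 1 and 8 when that fit also removed the GC trend. The block on the number gave 33, 38 and 9 calls over the other lists and changed no call of the 10 genes. With 2 lysates per genotype, DDIT3 had 30 to 64 RPF reads per library and CHAC1 had 24 to 93. Neither gene was called in RPF or TE, and the smallest change that could be detected was not calculated.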
